A study of Mus musculus with 38 samples.

Results

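The 8 genes described here are the enzymes that write, maintain and remove 5-methylcytosine in mouse cells and their 2 close partners: the maintenance methyltransferase Dnmt1 with its recruiter Uhrf1, the de novo methyltransferases Dnmt3a and Dnmt3b with their catalytically inactive cofactor Dnmt3l, and the oxidases Tet1, Tet2 and Tet3. They were taken by symbol, not by their values, and all 8 were found among the 35976 and 37108 genes of the 2 bulk expression tables and the 20695 genes of the single-cell table. The cells were E13.5 mouse embryonic fibroblasts (MEFs), from matings of male OG2 with female 129S4/SvJaeJ mice, infected with retroviruses and then moved to iCD3, a medium that holds mLIF and bFGF, vitamin C and the inhibitors CHIR99021, SGC0946, Y27632 and LSD1-HCL. JGES cells received Jdp2, Glis1, Esrrb and Sall4, with BMP4 at 10 ng/ml (BMP4+) or without it (BMP4−), and bulk RNA-seq covered day 0, which both arms share, and days 1, 3, 5 and 7 of each arm. At day 7, bulk RNA-seq also covered JGE cells (no Sall4), JGEO cells (Oct4 in place of Sall4) and JGESO cells (both), each with and without BMP4, and scRNA-seq covered JGES cells with and without BMP4. MEFs infected with Sall4 alone, without BMP4, carried the full protein (SALL4WT) or a form that lacks 12 N-terminal residues (SALL4delN12), the stretch that contacts the NuRD corepressor complex. These were measured by bulk RNA-seq and ATAC-seq at days 1, 5, 9 and 11, next to uninfected MEFs for ATAC-seq, and by CUT&Tag for SALL4 and the active mark H3K27ac at day 6. In total there were 23 bulk RNA libraries, 2 scRNA-seq samples, 9 ATAC-seq peak lists and 4 CUT&Tag peak lists. Each condition has 1 sample, and the sources used here do not tell how many cultures it stands for, so no difference below has a replicate check and no p-value is given.

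Dnmt1 copies methylation onto the new strand after replication, and Uhrf1 brings it to hemimethylated CpG sites. Dnmt3a and Dnmt3b set methylation at new sites, Dnmt3l stimulates both, and the TET enzymes oxidise 5-methylcytosine to 5-hydroxymethylcytosine and beyond, using iron, 2-oxoglutarate and, as a helper, vitamin C, which iCD3 contains. In the mouse, Dnmt3l and Tet1 are well known from pluripotent and germ cells, Tet3 is the oxidase of the zygote, and extra-embryonic lineages are known for lower methylation than the embryo proper. Messenger RNA was measured here, and neither protein nor methylation was.

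The genes lie at chr9:20907209-20959888 (Dnmt1, minus strand), chr17:56303321-56323486 (Uhrf1, plus strand), chr12:3806007-3914443 (Dnmt3a, plus), chr2:153649450-153687730 (Dnmt3b, plus), chr10:78041947-78063622 (Dnmt3l, plus), chr10:62804570-62908996 (Tet1, minus), chr3:133463679-133545139 (Tet2, minus) and chr6:83362373-83459084 (Tet3, minus) of mm10 (GRCm38.p6). RefSeq has 15 start windows for them, of 250 bases before to 50 after a start. The Tet2 window holds 57 CpG sites, and 99.8% of the 21263 windows of protein-coding genes hold fewer, and the 2 outer windows of Dnmt3a hold 46 and 47. Those of Dnmt3b, Tet3 and Tet1 hold 30, 22 and 17, and the 2 windows of Uhrf1 hold 12 and 33, where the median of all windows is 13. Dnmt3l lies at the other end, with 6, 4 and 3 CpG sites in its 3 windows, and the 3 windows of Dnmt1 hold 2, 12 and 33. The letters ATATT, searched on both strands as a short form of the AT-rich sequence that SALL4 is known to bind, occur in 1 of the 15 windows (the third of Dnmt1) and in 22% of all windows.

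A few of these windows are printed because a SALL4 peak was listed there in one form of SALL4 and not in the other (described with the peaks). They come from RefSeq (GRCm38.p6), 5′ to 3′ on the strand of the gene, and capitals mark every CpG site.
Uhrf1, chr17:56303087-56303386, plus strand: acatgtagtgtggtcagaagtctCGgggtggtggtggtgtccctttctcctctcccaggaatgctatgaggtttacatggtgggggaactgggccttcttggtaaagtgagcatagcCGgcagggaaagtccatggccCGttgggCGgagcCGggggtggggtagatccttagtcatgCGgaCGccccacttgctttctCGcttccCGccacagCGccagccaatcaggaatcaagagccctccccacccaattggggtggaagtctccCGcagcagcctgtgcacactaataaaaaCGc
Tet1, chr10:62887275-62887574, minus strand: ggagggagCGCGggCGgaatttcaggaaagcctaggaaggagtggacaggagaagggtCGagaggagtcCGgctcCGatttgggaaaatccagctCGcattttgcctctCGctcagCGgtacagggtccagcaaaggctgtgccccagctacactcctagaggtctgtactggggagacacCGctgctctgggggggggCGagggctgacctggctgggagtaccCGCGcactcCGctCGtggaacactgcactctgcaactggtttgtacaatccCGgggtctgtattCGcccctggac
Tet2, chr3:133544341-133544640, minus strand: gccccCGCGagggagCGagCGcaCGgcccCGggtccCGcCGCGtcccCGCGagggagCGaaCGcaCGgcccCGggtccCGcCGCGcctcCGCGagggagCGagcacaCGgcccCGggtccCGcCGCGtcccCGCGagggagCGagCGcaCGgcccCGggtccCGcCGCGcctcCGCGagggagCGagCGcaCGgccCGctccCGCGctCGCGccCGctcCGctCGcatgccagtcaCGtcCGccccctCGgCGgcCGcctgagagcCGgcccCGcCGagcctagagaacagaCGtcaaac
Dnmt3l, downstream start, chr10:78055085-78055384, plus strand: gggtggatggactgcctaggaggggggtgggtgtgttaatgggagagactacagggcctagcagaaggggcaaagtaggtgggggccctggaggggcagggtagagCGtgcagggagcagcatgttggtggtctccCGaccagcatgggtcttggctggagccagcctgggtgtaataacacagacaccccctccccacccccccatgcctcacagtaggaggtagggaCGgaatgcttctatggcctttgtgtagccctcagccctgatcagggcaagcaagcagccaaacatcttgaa
These windows run from the CpG-dense Tet2 window to the CpG-poor Dnmt3l window.

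With BMP4, the 8 genes of JGES cells took different courses: the maintenance pair, Dnmt3l, Tet1 and Tet2 were lower with BMP4 at day 7, Dnmt3a changed little, Dnmt3b was higher with BMP4 early and lower late, and Tet3 was the only member with a positive difference at day 7. Levels are FPKM (fragments per kilobase of transcript, scaled to the mapped reads of the library), a scale per length on which genes can be compared, and differences are of log2(FPKM + 1), BMP4+ minus BMP4−, which understate the change of low genes. A gene was tested where either library reached 1 FPKM and is called past a difference of 1, that is, 2-fold. In bulk RNA, fewer cells of a type and less RNA per cell cannot be told apart.

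Dnmt1 stood at 30.5 FPKM at day 0. Without BMP4 it read 33.4, 36.5, 48.6 and 47.5 FPKM at days 1, 3, 5 and 7, and with BMP4 35.4, 22.7, 25.3 and 21.3. The arms were level at day 1 and apart from day 3, by −0.66, −0.91 and −1.12 on the log2 scale. Uhrf1, which reads hemimethylated CpG, took the same course from 32.6 FPKM at day 0. Without BMP4 it read 43.6, 56.6, 79.8 and 79.3 FPKM, and with BMP4 37.6, 23.8, 27.1 and 31.5, with differences of −0.21, −1.22, −1.52 and −1.30. Without BMP4 it had the highest level of the 8 genes on every day, and with BMP4 on every day but day 3, when Dnmt3b was highest.

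Both genes are known to be expressed most in replicating cells, and a fixed list of 10 S-phase genes moved with them. Its summed level was 311 FPKM at day 0, 346, 351, 548 and 446 FPKM without BMP4 and 353, 195, 227 and 203 FPKM with it, and 6 of the 10 were called lower at day 7, where 13.8% of all genes tested were, with a median difference of −1.15 (−0.14 over all genes). Of the 8 G2 and M phase genes 7 were called lower, with a median of −1.25. How much of the Dnmt1 and Uhrf1 difference goes with cell cycling was not tested.

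Among the de novo enzymes, Dnmt3a rose from 9.27 FPKM at day 0 to 17.4, 23.1, 22.3 and 18.8 FPKM without BMP4 and to 13.3, 20.9, 23.2 and 16.3 FPKM with it. Its differences between the arms stayed between −0.37 and 0.05. Dnmt3b started at 0.668 FPKM and read 1.51, 11.8, 16.4 and 17.7 FPKM without BMP4 and 7.42, 25.6, 21.9 and 10.4 FPKM with it. The gene thus peaked at day 3 with BMP4 and at day 7 without, and its difference went from 1.75 and 1.05 at days 1 and 3 to 0.40 and −0.71 at days 5 and 7. Of the summed Dnmt3a and Dnmt3b level, Dnmt3b made up 6.72% at day 0, 35.9% at day 1 and 55.0% at day 3 with BMP4, and 48.5% without and 39.0% with BMP4 at day 7.

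Dnmt3l, the cofactor, was listed at 0 in the day 0 and day 1 libraries of both arms and at day 3 with BMP4. Without BMP4 it read 0.129, 5.42 and 29.1 FPKM at days 3, 5 and 7, and with BMP4 0.262 and 1.05 FPKM at days 5 and 7. The differences of −2.35 and −3.88 made it the member that BMP4 lowered most at both days. Fixed pluripotency markers had summed levels of 949 FPKM without BMP4 and 42.4 FPKM with it at day 7, while 6 fibroblast markers stood at 70.7 and 972 FPKM and primitive endoderm markers at 53.8 and 140 FPKM. The share of each cell type in these bulk values was not tested.

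The TET genes parted. Tet1 was at 0.675 FPKM at day 0, at 0.816, 2.52, 8.19 and 14.3 FPKM without BMP4 and at 0.461, 1.19, 1.43 and 1.94 FPKM with it, so that the difference grew from −0.31 over −0.69 and −1.92 to −2.38. Tet2 was at 2.36 FPKM at day 0, at 1.18, 4.79, 8.72 and 11.9 FPKM without BMP4 and at 1.64, 2.47, 4.54 and 5.42 FPKM with it, a difference of −1.01 at day 7. Tet3 was at 5.31 FPKM at day 0, at 3.90, 6.12, 7.78 and 6.42 FPKM without BMP4 and at 3.46, 7.31, 10.9 and 9.89 FPKM with it, a difference of 0.55 at day 7 that does not reach 2-fold. The summed TET level was 8.34 FPKM at day 0, of which Tet3 made up 63.6% and Tet1 8.09%. By day 7 without BMP4 the sum was 32.6 FPKM and the leading gene was Tet1, at 43.8%, with Tet3 at 19.7%. With BMP4 the sum was 17.3 FPKM and Tet3 led, at 57.3%, with Tet2 at 31.4% and Tet1 at 11.2%.

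**Figure D1:**
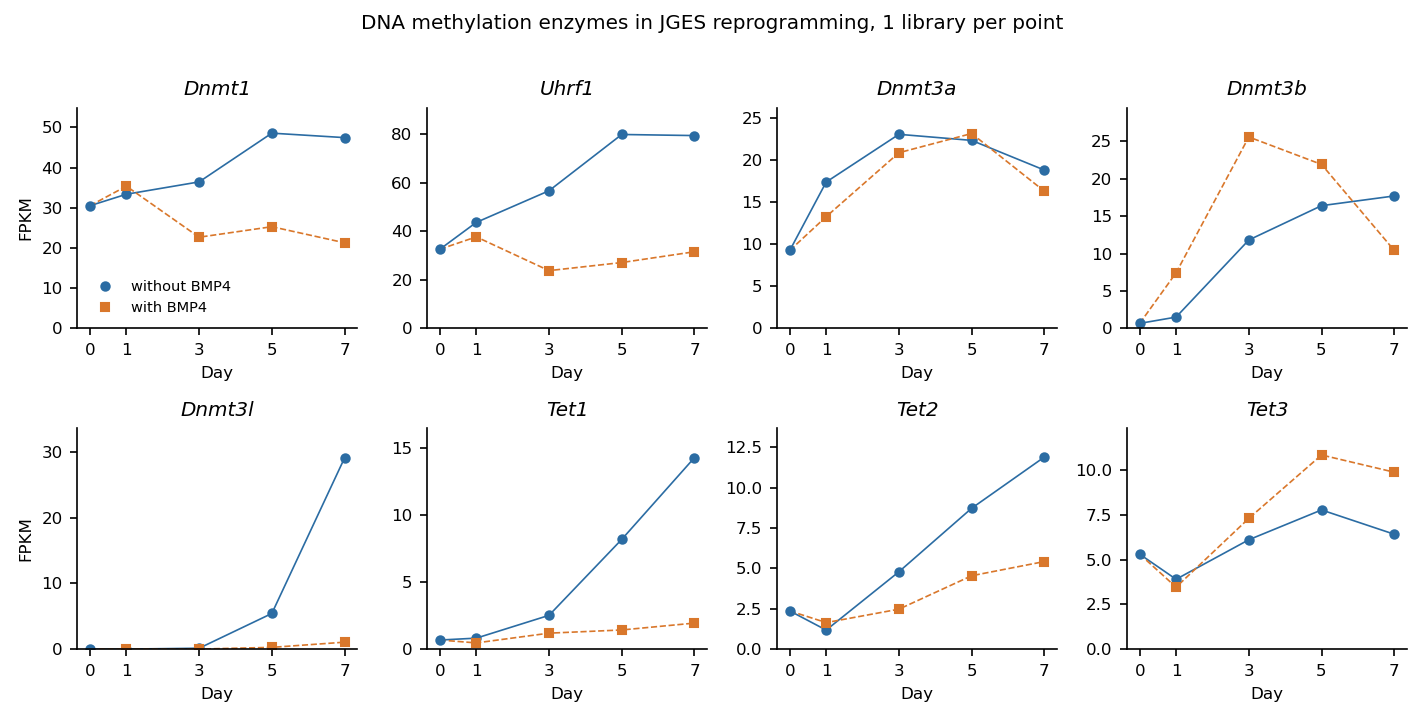
FPKM of the 8 genes (linear axis) by day in JGES cells, BMP4− and BMP4+, with 1 library per point and day 0 shared by both arms. The arms part from day 3 for Dnmt1, Uhrf1 and Tet1 (14.3 against 1.94 FPKM at day 7) and from day 5 for Dnmt3l, while Dnmt3a differs little and Tet3 ends higher with BMP4.

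Against the whole transcriptome, 1 of the 6 members tested was called higher with BMP4 at day 1 (Dnmt3b), where 3.75% of all genes tested were, and none was lower (5.72% of all genes). At day 3, 1 of 7 was higher (Dnmt3b; 6.81% of all genes) and 1 lower (Uhrf1; 8.99%). At day 5, none of 8 was higher (8.78%) and 3 were lower (Uhrf1, Dnmt3l and Tet1; 13.2%). At day 7, none was higher (10.3%) and 5 were lower (Dnmt1, Uhrf1, Dnmt3l, Tet1 and Tet2; 13.8%). The members' median difference was −0.03, −0.66, −0.86 and −1.06 at days 1, 3, 5 and 7, and that of all genes tested −0.02, −0.09, −0.18 and −0.14, so the scale itself sits below 0 at the last pair of days. With the libraries scaled to a median ratio over genes, Tet2 at day 7 had a difference of −0.90 and was no longer called. Of the members called lower, Dnmt3l at day 5 reached 1 FPKM without BMP4 only.

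Against day 0, 5 of the 8 genes were called higher at day 7 without BMP4, where 22.2% of all genes tested were: Dnmt3l (4.91), Dnmt3b (3.49), Tet1 (3.19), Tet2 (1.94) and Uhrf1 (1.26). The others were at 0.95 (Dnmt3a), 0.62 (Dnmt1) and 0.24 (Tet3). With BMP4, 2 of 8 were called higher (17.5% of all genes), Dnmt3b (2.77) and Dnmt3l (1.04). No member was called lower in either arm, where 10.4% of all genes were without BMP4 and 9.47% with it. Both counts use the same day 0 library, and Dnmt3b, Dnmt3l and Tet1 were under 1 FPKM there. Where these were tested only through their day 7 level, they could be called higher and not lower, so the counts that hold them are a description.

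The genes whose course over the 17 libraries of the JGES and SALL4 series was most like that of a member were found by Pearson's r of log2(FPKM + 1) over 12351 genes. Libraries of one series follow one another over days and both arms share day 0, so r is a description. Dnmt1 was nearest to Dtl (r = 0.985), Mcm4 (0.983), a subunit of the replicative helicase, and Rrp1b (0.977), and Uhrf1 to Fkbp4 (0.979), Incenp (0.970) and Noc2l (0.969). For the de novo genes these were Ptprk (0.974), Slc39a10 (0.963) and Nrip1 (0.963) for Dnmt3a, Prodh2 (0.978), Epb41 (0.972) and Slc25a13 (0.959) for Dnmt3b, and Tuba3a (0.993), Gm32885 (0.992) and Tcl1 (0.983) for Dnmt3l. Tet1 was nearest to Foxh1 (0.978), Zscan10 (0.972) and Mtf2 (0.971), Tet2 to Tmem194 (0.970), Acvr2b (0.965) and Zbtb12 (0.960), and Tet3 to Narf (0.913), Mfap3 (0.903) and Pdk2 (0.902). Between members, the highest values were those of Dnmt1 with Uhrf1 (0.953) and Tet1 with Tet2 (0.933), and the lowest was that of Dnmt1 with Tet3 (0.295).

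Further lists cover the rest of the pathway in the day 7 JGES libraries, where 13.8% of all genes tested were called lower and 10.3% higher with BMP4, with a median of −0.14. Of the proteins that work with the maintenance enzymes at the replication fork, 3 of 5 tested were called lower with BMP4, with a list median of −1.39: Cdca7 (32.8 FPKM without and 8.99 FPKM with BMP4), the remodeller Hells (18.3 and 6.01) and the ligase Lig1 (45.8 and 16.9). The guides and protectors of methylation and the germline genes known to be silenced by promoter methylation include genes that reached 1 FPKM without BMP4 only, so no count is given for these lists. Of the former, Dppa3, which is known to keep Uhrf1 off chromatin in the oocyte, was at 30.7 and 0.429 FPKM, and Dppa4 and Zfp42 were also lower. Of the latter, Dazl was at 20.6 and 0.620 FPKM, Mael at 4.68 FPKM and listed at 0, and Tex19.1 at 8.54 and 1.41 FPKM, while Sycp3, named after its values were seen, was the 1 gene of this list called higher with BMP4. Genes of the methyl donor pathway were lower in 4 of 8 cases (median −0.88), including Mthfd1, Tdh and Ahcy. Base excision genes, which finish active demethylation, were lower in 3 of 13 cases and higher in 1 (median −0.34), with the glycosylases Neil3 (13.4 and 3.42 FPKM) and Ung (18.1 and 5.36) and Parp1 (119 and 46.7) lower. The 8 methyl-CpG readers had a median of 0.07 and 1 call, Zbtb4, which was higher with BMP4 (1.81 and 6.57 FPKM).

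Among factor sets at day 7, without BMP4, Dnmt3b, Dnmt3l and Uhrf1 were lowest in JGE cells and higher in each set with Sall4 or Oct4, whereas Tet1 and Tet2 were highest in JGES cells without BMP4 and stayed near or under 2 FPKM in JGEO and JGESO cells. These 8 libraries form a table of their own, in which the JGES values are copies of the libraries above at 0.975 and 0.978 times their FPKM. The step of 1 read in FPKM values under 0.1 gives an estimate of depth, which was 0.339 and 0.367 of that of the JGE library without BMP4 in the 2 JGES libraries and 0.900 to 1.24 of it in the other 6. The estimate rests on the commonest ratio between libraries, which 19.3% and 25.8% of the genes used shared in the JGES libraries. On it, for any comparison of JGES with another set, the factor and the set of libraries cannot be told apart. Sall4 itself read 2.09 and 6.23 FPKM in JGE cells without and with BMP4, 28.9 and 30.3 in JGEO, 273 and 190 in JGES and 174 and 213 in JGESO, and Pou5f1 (Oct4) was listed at 0 and read 0.0970 in JGE, against 1570 and 1599 in JGEO and 370 and 449 in JGESO.

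Uhrf1 was at 16.6 FPKM in JGE cells without and 37.3 FPKM with BMP4, at 84.7 and 61.3 FPKM in JGEO, at 76.8 and 45.1 FPKM in JGESO and at 77.3 and 30.8 FPKM in JGES. BMP4 went with more Uhrf1 in JGE cells (1.12) and with less in the other sets. Dnmt1 was at 14.4 and 25.7 FPKM in JGE, 40.1 and 36.5 in JGEO, 28.0 and 21.8 in JGESO and 46.3 and 20.8 in JGES. It too was higher with BMP4 in JGE alone. The S-phase list moved the same way, at 121 and 201 FPKM in JGE, 454 and 341 in JGEO, 393 and 278 in JGESO and 435 and 199 in JGES, and 8 of its 10 genes were called higher with Sall4 or with Oct4 added to JGE without BMP4, where 20.1% and 10.2% of all genes tested were. Its part in the Uhrf1 and Dnmt1 values was not tested.

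Dnmt3b was at 1.11 and 5.81 FPKM in JGE cells without and with BMP4, at 12 and 12 in JGEO, at 21.1 and 13.9 in JGESO and at 17.2 and 10.2 in JGES. Dnmt3l was listed at 0 in both JGE libraries. It read 5.0 and 13.6 FPKM in JGEO, 19 and 14.3 FPKM in JGESO and 28.4 and 1.03 FPKM in JGES, so with BMP4 it was far lower in JGES cells (−3.86), moved by −0.39 in JGESO cells and was higher in JGEO cells. Dnmt3a had read 9.27 FPKM in the JGES library of day 0. At day 7 it was at 22.5 and 34.4 FPKM in JGE, 35.0 and 44.7 in JGEO, 23.2 and 20.9 in JGESO and 18.3 and 15.9 in JGES.

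Tet1 was at 0.368 and 0.321 FPKM in JGE, 1.06 and 1.77 in JGEO, 0.972 and 0.518 in JGESO and 13.9 and 1.90 in JGES. Tet2 was at 2.42 and 1.67 FPKM in JGE, 0.868 and 2.04 in JGEO, 0.383 and 0.312 in JGESO and 11.6 and 5.30 in JGES. JGEO and JGESO cells thus held pluripotency marker sums of 333 and 460 FPKM without BMP4 (925 in JGES, 14.1 in JGE) beside Tet1 levels of 1.06 and 0.972 FPKM. Fibroblast markers summed to 350 and 442 FPKM there (68.9 in JGES, 621 in JGE) and primitive endoderm markers to 28.3 and 315 FPKM (52.5 in JGES, 17.1 in JGE), and the part of cell make-up in these levels was not tested. Tet3, the remaining oxidase, was at 7.41 and 11.3 FPKM in JGE, 18 and 19 in JGEO, 16.4 and 11.9 in JGESO and 6.26 and 9.68 in JGES.

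With BMP4, 2 of 6 members tested were called higher in JGE cells (Dnmt3b, 1.69, and Uhrf1, 1.12), where 4.28% of all genes tested were, 1 of 8 in JGEO cells (Dnmt3l, 1.28; 2.26%) and none of 6 in JGESO cells in either direction (8.81%). None was called lower in JGE or JGEO cells (4.78% and 1.95% of all genes). Adding Sall4 to JGE without BMP4 went with 6 of 8 called higher (20.1% of all genes): Dnmt3l (4.88), Tet1 (3.45), Dnmt3b (3.11), Uhrf1 (2.15), Tet2 (1.88) and Dnmt1 (1.62). With BMP4 the same addition gave 3 higher (12.1%), Tet2 (1.24), Tet1 (1.13) and Dnmt3l (1.02), and 1 lower (11.1%), Dnmt3a (−1.06). With the libraries scaled to a median ratio, Dnmt3a was no longer called here. Dnmt3l and Tet1 were under 1 FPKM in both JGE libraries and were tested only through the set with the added factor, so that they could be called in 1 direction only, which holds for Oct4 added to JGE too wherever they are called. Both comparisons set JGES against JGE libraries and thus carry the difference in depth. Adding Sall4 to JGEO, between libraries of like depth, gave 1 of 7 higher without BMP4 (Dnmt3l, 1.74; 7.48%) and 2 lower with it (Tet2, −1.21, and Dnmt3a, −1.06; 21.2%). Scaled to a median ratio, Dnmt3a again lost its call, and Tet2 was not tested at a minimum of 5 FPKM.

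Adding Oct4 to JGE gave 5 members higher without BMP4 (10.2% of all genes): Dnmt3b (2.63), Dnmt3l (2.59), Uhrf1 (2.28), Dnmt1 (1.42) and Tet3 (1.17). With BMP4 it gave 2 higher (7.54%), Dnmt3l (3.87) and Tet1 (1.07), the latter on levels under 2 FPKM and no longer called when scaled to a median ratio. Adding Oct4 to JGES without BMP4 went with lower Tet2 (−3.19) and Tet1 (−2.92), where 32.7% of all genes were called lower, and with higher Tet3 (1.26; 16.8%). With BMP4 it went with higher Dnmt3l (2.92; 14.0%) and lower Tet2 (−2.26; 24.9%). Tet1 and Tet2 were under 1 FPKM in JGESO both without and with BMP4. In the comparisons with JGESO where they were tested, they could thus be called lower and not higher. The sets compared here share libraries, so these counts are not separate evidence of one another.

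**Figure D2:**
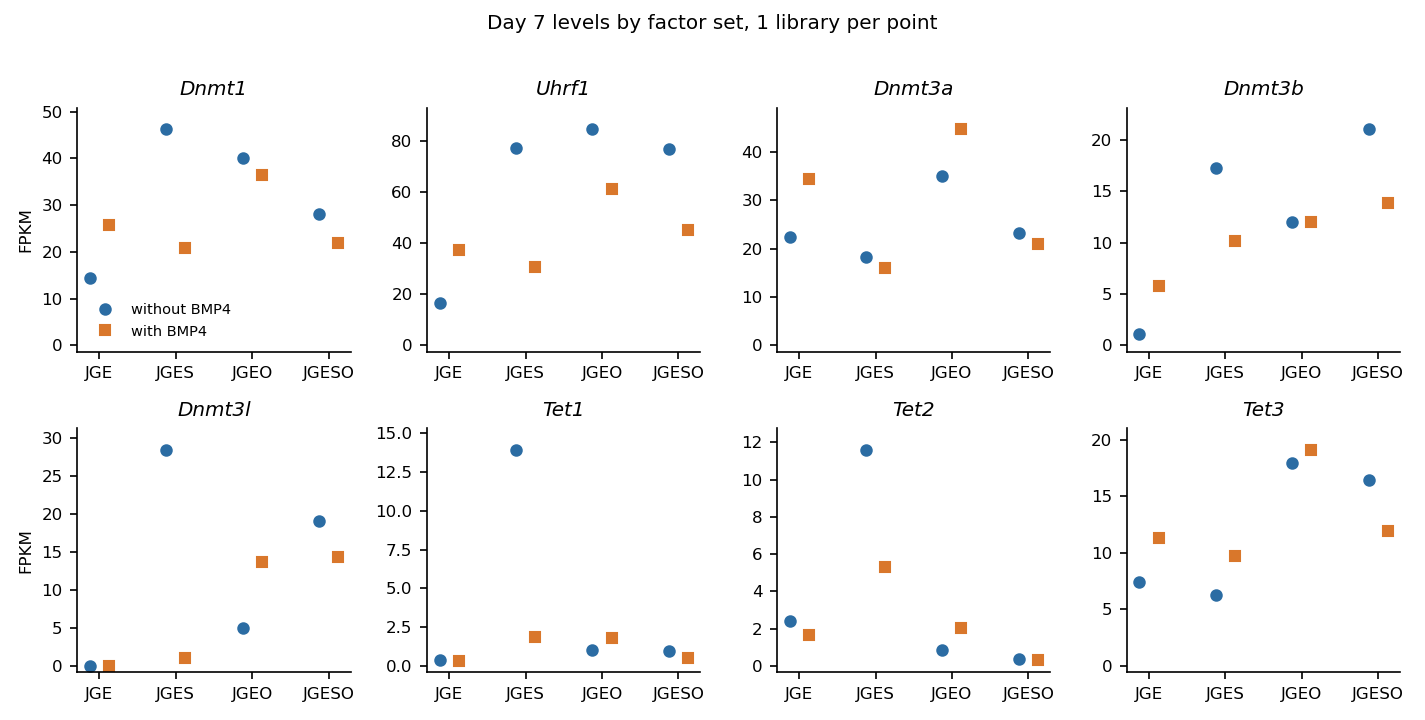
FPKM of the 8 genes (linear axis) at day 7 in JGE, JGEO, JGESO and JGES cells without and with BMP4, 1 library per point. Tet1 and Tet2 stand out in JGES without BMP4 (13.9 and 11.6 FPKM), and Dnmt3l reads 28.4 FPKM there and 1.03 FPKM with BMP4.

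Single cells gave the levels by cell type. The types are the authors' annotation, which was made from the same counts, so differences between types are a description. Without BMP4 there were 8685 cells with a median of 12738 UMIs, of the types intermediate (6211), pluripotent (1825), endothelial (507) and ParE (142), and with BMP4 11335 cells with a median of 21205 UMIs, of the types intermediate (7125), ParE (2372), endothelial (1453) and placenta-like (385). Markers were highest in the types they name: pluripotency markers summed to 7156 CPM in pluripotent cells, and primitive endoderm markers to 815 and 1169 CPM in ParE cells without and with BMP4. Of the pluripotency sum, Dppa5a alone made up 6305 CPM. ParE is the deposited label, and these cells carry the markers of primitive endoderm. The 142 ParE cells without BMP4 also held 876 CPM of pluripotency markers, where intermediate and endothelial cells of that sample held 363 and 306 CPM. Levels are summed UMIs scaled to the total of the sample's cells of that type (CPM), compared within a gene and not between genes, with exact 95% Poisson intervals that, like all intervals here, cover counting error only.

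Pluripotent cells held the most Dnmt3l and Tet1 and the least Tet3. Dnmt3l was at 31.4 CPM (29.4 to 33.5) there, at 2.28 CPM in intermediate, 5.29 CPM in ParE and 2.14 CPM in endothelial cells without BMP4. With BMP4 it was at 0.323 CPM in intermediate, 0.114 CPM in ParE and 0.926 CPM in placenta-like cells, and had no UMI in 1453 endothelial cells. At a floor of 3 counts this allows up to 0.0859 CPM and up to 0.206% of cells with a UMI, which is no limit on cells that express the gene (the upper ends of the exact 95% intervals are 0.106 CPM and 0.254%). A UMI of Dnmt3l was found in 31.7% of pluripotent cells (median 15444 UMIs) and 2.95% of intermediate cells (median 11892 UMIs), and after thinning every cell to 4000 UMIs in 11.3% and 0.821%. The intermediate level was 7.27% of the pluripotent one for Dnmt3l. It was 2.63% to 5.73% for the 5 markers Dppa5a, Nanog, Zfp42, Utf1 and Tdgf1 and 35.6% for the sixth, Sox2. Free RNA in droplets and expression in the intermediate cells cannot be told apart by these shares, and the source of the UMIs was not tested.

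Tet1 was at 51.2 CPM (48.6 to 53.8) in pluripotent cells, and at 12.5, 18.0 and 7.36 CPM in intermediate, ParE and endothelial cells without BMP4. Its levels with BMP4 reached further toward that of pluripotent cells than those of Dnmt3l, at 7.18 CPM in intermediate, 26.8 CPM in ParE, 18.5 CPM in endothelial cells and 14.1 CPM in the placenta-like ones. A Tet1 UMI was found in 51.7% of pluripotent and 14.5% of intermediate cells (18.0% and 4.72% after thinning). The intermediate level of 24.4% of the pluripotent one lies above that of the 5 markers and below that of Sox2, and its source was not tested. Tet2 varied least of the oxidases, from 7.94 CPM in ParE to 11.7 CPM in pluripotent cells without BMP4 and from 6.38 CPM in ParE to 11.9 CPM in intermediate cells with it.

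Tet3, in contrast to Tet1, was lowest in pluripotent cells. It was at 4.08 CPM (3.38 to 4.87) in pluripotent cells and at 16.1, 25.4 and 16.2 CPM in intermediate, ParE and endothelial cells without BMP4. With BMP4 it was at 75.7 CPM (73.6 to 77.9) in ParE cells, 51.5 CPM in placenta-like, 35.2 CPM in endothelial and 30.4 CPM in intermediate cells. A Tet3 UMI was seen in 77.4% of ParE cells with BMP4 and 6.14% of pluripotent cells without it, and in 25.6% and 1.04% after thinning.

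Of the maintenance pair, Dnmt1 was at 33.3 to 45.6 CPM in the 4 types without BMP4, highest in pluripotent cells. With BMP4 it was at 53.2 CPM in intermediate, 108 CPM in ParE, 152 CPM in endothelial cells and 181 CPM (173 to 189) in the placenta-like ones. Uhrf1 was at 52.0 CPM in intermediate, 74.0 CPM in pluripotent, 46.0 CPM in ParE and 48.0 CPM in endothelial cells without BMP4, and at 20.9 CPM in intermediate, 96.2 CPM in ParE, 96.5 CPM in endothelial cells and 72.8 CPM in the placenta-like ones with it. Intermediate cells with BMP4 thus held the least Uhrf1 of any type, and the extra-embryonic and endothelial types with BMP4 the most Dnmt1. The S-phase list stood at 347, 594, 459 and 392 CPM in intermediate, pluripotent, ParE and endothelial cells without BMP4, and at 292, 924, 929 and 841 CPM in intermediate, ParE, endothelial and placenta-like cells with it, and its part in these values was not tested.

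Within a type, cells were cut by their S-phase level into 3 equal groups. In intermediate cells with BMP4, Uhrf1 was at 3.31 CPM in the 2375 cells of the lowest group and at 50.7 CPM in the highest, and Dnmt1 at 20.4 and 105 CPM. In ParE cells with BMP4, groups of 790 cells gave 56.7 and 142 CPM for Uhrf1 and 66.8 and 146 CPM for Dnmt1. In intermediate cells without BMP4, Uhrf1 was at 31.8 and 75.2 CPM. Tet3 moved less, from 27.7 to 33.7 CPM in intermediate and from 68.7 to 79.7 CPM in ParE cells with BMP4. In pluripotent cells cut in the same way by their pluripotency markers (608 cells each), Dnmt3l was at 23.7 and 37.1 CPM in the lowest and highest groups and Tet1 at 48.5 CPM in both. This cut ranks cells mostly by Dppa5a, which made up 6305 of the 7156 CPM of that list in pluripotent cells. In ParE cells cut by primitive endoderm markers, Tet3 was at 69.4 and 77.5 CPM, Tet1 at 21.7 and 32.2 CPM, and Dnmt3a at 40.6 and 27 CPM.

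The de novo enzymes were spread over the types in different ways. Dnmt3a was lowest in pluripotent cells without BMP4 (23.3 CPM, against 50.3, 37.0 and 41.0 CPM in intermediate, ParE and endothelial cells). With BMP4 it was highest in intermediate cells, at 58.8 CPM, and lay at 31.6 CPM in ParE, 30.7 CPM in endothelial cells and 22.0 CPM in the placenta-like ones. Dnmt3b was at 12.4 CPM in intermediate, 41.5 CPM in pluripotent, 62.4 CPM (51.7 to 74.8) in ParE and 21.7 CPM in endothelial cells without BMP4, and at 43.9, 35.4, 55.4 and 18.4 CPM in intermediate, ParE, endothelial and placenta-like cells with it. Dnmt3b of ParE cells was thus higher without BMP4 than with it, in a group of only 142 cells.

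**Figure D3:**
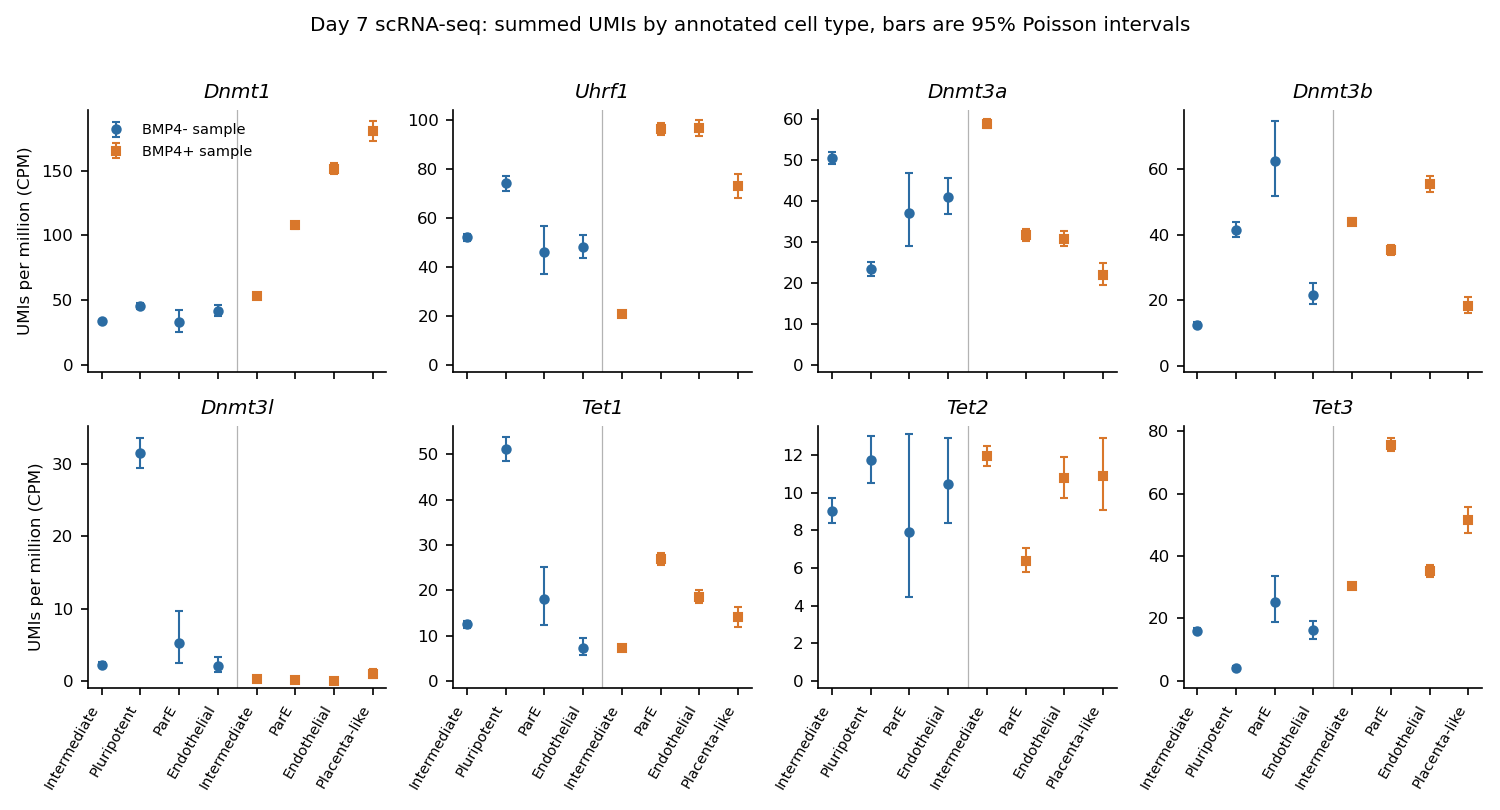
Level of the 8 genes in CPM (linear axis) by annotated cell type in the BMP4− and BMP4+ samples of day 7, with exact 95% Poisson intervals. Dnmt3l and Tet1 are highest in pluripotent cells (31.4 and 51.2 CPM), Tet3 in ParE cells with BMP4 (75.7 CPM) and Dnmt1 in placenta-like cells (181 CPM).

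Counted as differences of log2(CPM + 1) from intermediate cells of the same sample, 5 members were past 2-fold in pluripotent cells (24.3% of all genes tested were): Dnmt3l (3.30), Tet1 (1.95) and Dnmt3b (1.66) higher and Tet3 (−1.75) and Dnmt3a (−1.08) lower. In ParE cells without BMP4 only Dnmt3b was (2.24; 22.1%), and in endothelial cells without BMP4 none was (12.5%). With BMP4, ParE cells had 4 members higher, Uhrf1 (2.15), Tet1 (1.77), Tet3 (1.29) and Dnmt1 (1.01), where 28.5% of all genes were past 2-fold. Endothelial cells with BMP4 had 3 higher, Uhrf1 (2.15), Dnmt1 (1.49) and Tet1 (1.26; 26.1%), and placenta-like cells had Uhrf1 (1.75) and Dnmt1 (1.75) higher and Dnmt3a (−1.38) and Dnmt3b (−1.21) lower (26.6%).

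Between the samples, over all cells, Tet3 was at 13.3 CPM without and 42.3 CPM with BMP4 (1.59), Dnmt1 at 37.1 and 84.1 CPM (1.16) and Dnmt3l at 9.34 and 0.260 CPM (−3.04), where 23.8% of all genes tested were called higher and 6.07% lower. Dnmt3b was at 20.9 and 42.3 CPM (0.99), Uhrf1 at 56.9 and 50.2 CPM (−0.18), Tet1 at 21.6 and 13.4 CPM (−0.64), Dnmt3a at 43.0 and 47.3 CPM and Tet2 at 9.77 and 10.5 CPM. Ribosomal protein genes took 44.0% of UMIs without and 26.3% with BMP4, and the median difference of all genes was 0.467. Relative to it Dnmt1 was at 0.69 and no longer past 2-fold, while Tet1 was at −1.11 and past it. Within intermediate cells Dnmt3b was higher (1.74; 23.6%) and Uhrf1 (−1.27) and Dnmt3l (−1.31) lower (5.46%). Dnmt3l was under 1 CPM in all cells, and in each type compared, with BMP4 and was tested only through its level without BMP4, so it could be called lower and not higher. Within ParE cells Dnmt1 (1.67), Tet3 (1.54) and Uhrf1 (1.05) were higher (22.7%) and Dnmt3l (−2.50) lower (5.88%). Within endothelial cells Dnmt1 (1.83), Dnmt3b (1.31), Tet1 (1.22) and Tet3 (1.08) were higher (19.4%) and Dnmt3l (−1.65) lower (4.81%). Relative to the median of all genes within each type, Dnmt3b (0.93), Tet1 (0.84) and Tet3 (0.69) of endothelial and Uhrf1 (0.62) of ParE cells were no longer past 2-fold, and Dnmt3b of ParE (−1.23) and Tet1 of intermediate cells (−1.14) were.

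With SALL4 alone, all 8 genes were at or under 27.5 FPKM, Dnmt3l and Tet1 stayed under 1 FPKM in both forms, and the maintenance pair fell over the days with SALL4WT and less so with SALL4delN12. Uhrf1 was at 27.5, 11.4, 6.11 and 4.45 FPKM at days 1, 5, 9 and 11 with SALL4WT and at 18.5, 17, 14.0 and 16.3 FPKM with SALL4delN12. Against day 1 of the same form these are −1.20, −2.01 and −2.39 with SALL4WT, where 4.19%, 6.51% and 8.76% of all genes tested were called lower, and −0.11, −0.38 and −0.18 with SALL4delN12. Dnmt1 was at 18.7, 13, 9.13 and 10.3 FPKM with SALL4WT and at 22.9, 21.3, 19.7 and 14.8 FPKM with SALL4delN12. The S-phase list summed to 290, 177, 106 and 81.1 FPKM with SALL4WT and to 282, 225, 196 and 186 FPKM with SALL4delN12, and 7 of its 10 genes were called higher with SALL4delN12 at day 11 (median 1.13), where 6.55% of all genes were. At day 11 primitive endoderm markers summed to 21.3 FPKM with SALL4WT and 128 FPKM with SALL4delN12, and placenta markers to 46.7 and 203 FPKM, which were already at 13.6 and 168 FPKM at day 1. The part of these lists in the Uhrf1 and Dnmt1 difference was not tested.

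Against day 1, the members called higher were Dnmt3b (1.22) and Tet3 (1.05) at day 5 (6.16% of all genes), Tet3 (1.13) at day 9 (7.74%) and Tet3 (1.03) at day 11 (10.4%), all with SALL4delN12, with Dnmt3b under 1 FPKM at day 1 and thus tested in 1 direction only. With SALL4WT no member was called higher against day 1. Tet3 also rose there, from 2.2 FPKM at day 1 to 4.76, 3.59 and 4.28 FPKM at days 5, 9 and 11. Whether the rise differs between the forms was not tested.

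Of the de novo genes, Dnmt3a was lower with SALL4delN12 on each day, at 2.84, 5.49, 4.59 and 4.62 FPKM against 5.06, 9.10, 7.86 and 8.91 FPKM with SALL4WT, without reaching 2-fold. Dnmt3b was at 0.131, 1.63, 0.900 and 1.22 FPKM with SALL4delN12 and at 0.224, 0.454, 0.183 and 0.430 FPKM with SALL4WT. The cofactor Dnmt3l was at 0.275, 0.204, 0.173 and 0.380 FPKM with SALL4delN12 and at 0.241, 0.0751 and 0.0788 FPKM with SALL4WT, where it was listed at 0 at day 11. Among the TET genes, Tet3 was highest in both forms, at 2.2, 4.76, 3.59 and 4.28 FPKM with SALL4WT and at 1.69, 4.57, 4.88 and 4.51 FPKM with SALL4delN12. Tet2 was at 0.342, 0.741, 1.13 and 1.31 FPKM with SALL4WT and at 0.722, 1.5, 1.49 and 1.42 FPKM with SALL4delN12. Tet1 ranged from 0.0745 to 0.556 FPKM over the 8 libraries.

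Between the forms, no member of 4 tested was called at day 1 and none of 6 at day 5, where 9.81% and 9.86% of all genes were called in either direction. At day 9, 2 of 5 were called higher with SALL4delN12, Uhrf1 (1.08) and Dnmt1 (1.03), where 6.09% of all genes were higher, and at day 11, 1 of 6, Uhrf1 (1.66; 6.55%).

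**Figure D4:**
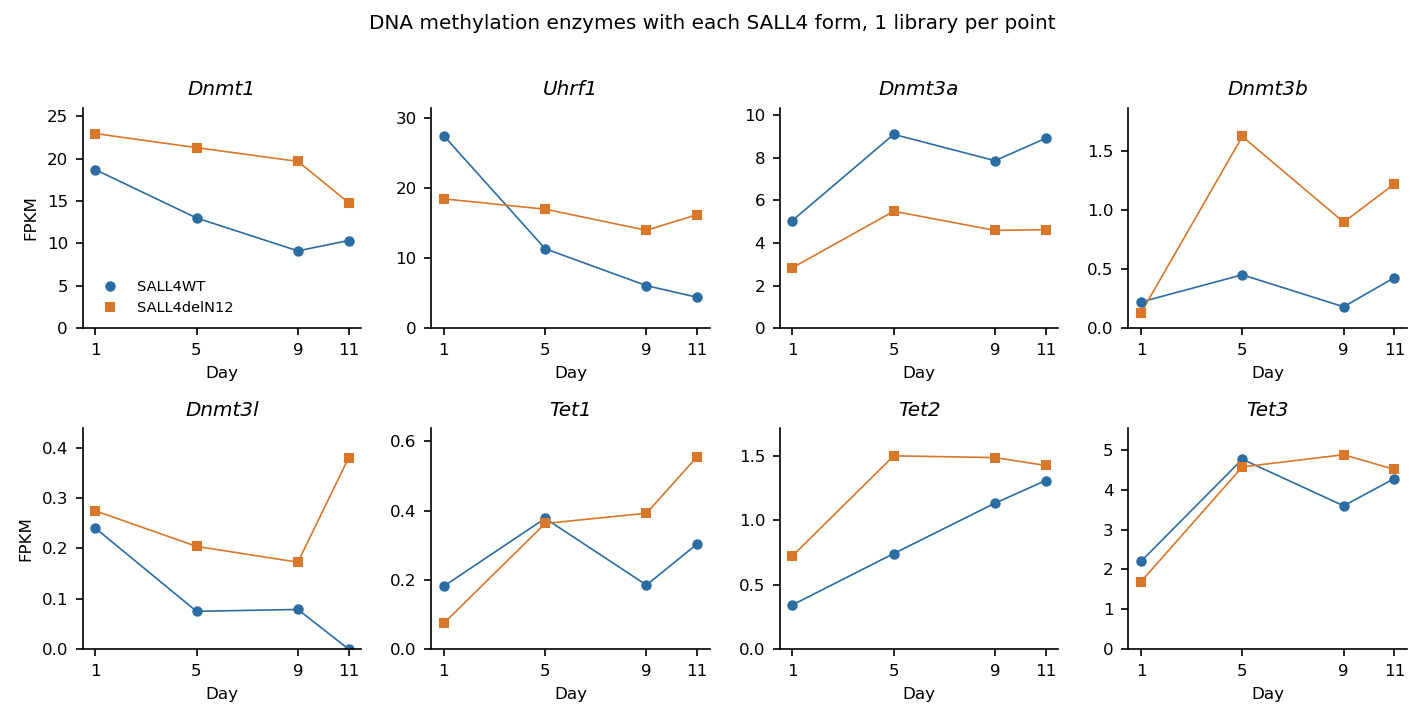
FPKM of the 8 genes (linear axis) at days 1, 5, 9 and 11 in cells with SALL4WT or SALL4delN12 alone, 1 library per point. Uhrf1 falls from 27.5 to 4.45 FPKM with SALL4WT and ends at 16.3 FPKM with SALL4delN12.

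In the peak lists, every member had an ATAC-seq peak within 2 kb of a RefSeq start in each of the 9 lists, where of 17492 protein-coding genes 67.3% had one in MEFs, 61.7%, 65.5%, 65.0% and 65.4% at days 1, 5, 9 and 11 with SALL4WT, and 59.8%, 61.5%, 63.0% and 63.3% with SALL4delN12. Here and for CUT&Tag, a gene counts if any of its starts has a peak. The 8 members have 15 starts and the 17492 genes 21263 start windows, so the members had more starts per gene and the shares are not like for like. The lists give a score per peak (at least 50), which depends on the depth of each list and is not compared between lists. With a minimum score of 100, Dnmt3a and Dnmt3l had no such ATAC-seq peak at day 1 with SALL4WT. With SALL4delN12, Dnmt3b then had none at day 1 and Tet1 none at days 1, 5 and 11. H3K27ac peaks lay at 7 of 8 members with SALL4WT (all but Dnmt3l; 49.5% of all genes) and at 8 of 8 with SALL4delN12 (58.4%). The best one at Dnmt3b with SALL4WT scored 80.8, below a minimum of 100. The H3K27ac lists hold 19841 and 45599 peaks, and 10.1% of all genes had an H3K27ac peak with SALL4delN12 only, against 1.21% with SALL4WT only.

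SALL4 peaks lay at 4 of 8 members with SALL4WT (Dnmt1, Uhrf1, Tet1 and Tet3; 53.6% of all genes) and at 4 of 8 with SALL4delN12 (Dnmt1, Dnmt3l, Tet2 and Tet3; 40.3%). Dnmt1 and Tet3 were thus listed with both forms. The best SALL4delN12 peak at Tet3 scored 81.7, so with a minimum score of 100 Tet3 had one with SALL4WT only. Within 2 kb of a start, Uhrf1 and Tet1 had a peak with SALL4WT only, as 16.3% of all genes did, and Dnmt3l and Tet2 with SALL4delN12 only, as 2.98% did. The lists hold 69475 and 67310 SALL4 peaks. Neither Dnmt3a nor Dnmt3b had a SALL4 peak at a start.

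The SALL4WT peak at Uhrf1 (chr17:56302547-56304714, score 187) spans the printed window and the second Uhrf1 start. That at Tet1 (chr10:62886544-62887807, score 169) spans the printed Tet1 window. Within 2 kb of the Tet2 start the SALL4delN12 list has 2 peaks, chr3:133543865-133545559 (score 69.5), which covers the CpG-dense sequence printed above, and chr3:133541796-133543564 (score 143), which lies inside the gene. At Dnmt3l the SALL4delN12 peak (chr10:78054252-78055687, score 228) covers the CpG-poor downstream window and coincides with an H3K27ac peak of the same cells (chr10:78054285-78055836, score 229).

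Inside Tet1 both forms had a SALL4 peak in an intron, at chr10:62850763-62852023 (score 139) with SALL4WT and chr10:62850648-62852018 (score 235) with SALL4delN12, and an H3K27ac peak lay over it with SALL4delN12 only (chr10:62850575-62852319, score 242). Dnmt3a and Tet2 also had intronic SALL4 peaks in both forms, and downstream of Uhrf1 both forms had one, at chr17:56325191-56326386 (score 361) with SALL4WT and chr17:56325461-56326284 (score 126) with SALL4delN12. Aire, on the minus strand, starts 1323 bases from the first Dnmt3l start, and the ATAC-seq peak over the Aire start, which was listed in every SALL4WT library, cannot be assigned to one of these genes.

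**Figure D5:**
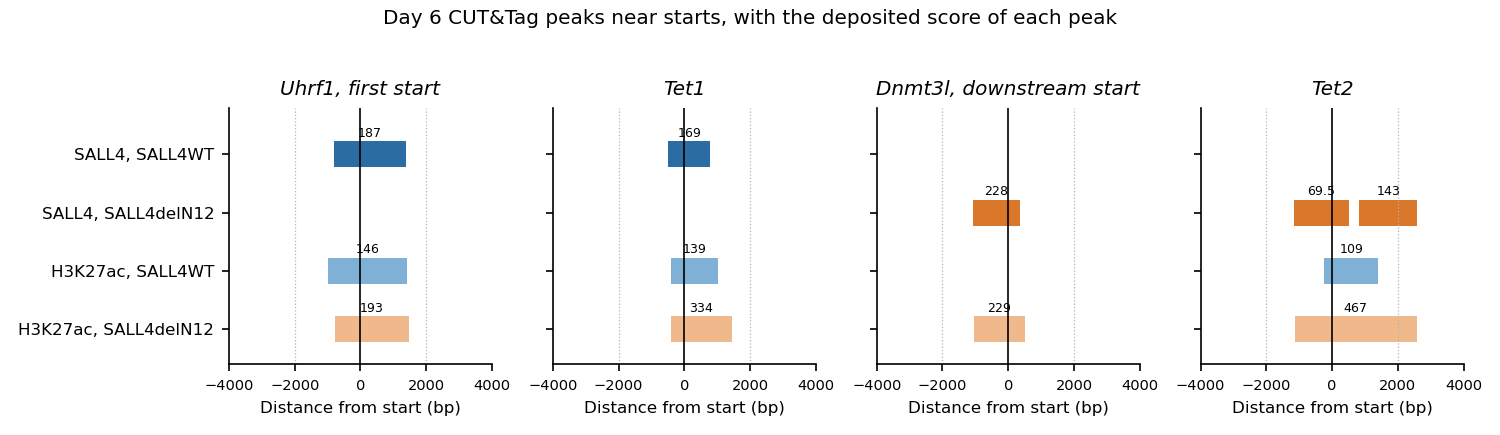
Peaks of the SALL4 and H3K27ac lists at Uhrf1, Tet1, Dnmt3l and Tet2 by distance from a RefSeq start (bp), for SALL4WT and SALL4delN12 at day 6, with 1 bar per peak and its deposited score above it. SALL4 peaks lie at the starts of Uhrf1 and Tet1 with SALL4WT only and of Dnmt3l and Tet2 with SALL4delN12 only.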

How the data were processed

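From trimmed bulk RNA-seq reads aligned to mm10, the authors deposited FPKM values per gene in 2 tables, of 17 and 8 libraries, and the submitters' processing notes name Trim Galore 0.6.4, HISAT2 2.2.1 and StringTie 2.2.1. For scRNA-seq the deposited table holds whole-number counts of UMIs per gene and cell from STAR, with the authors' cell types from Scanpy, without normalization. Its 10749 cell columns of other samples were not used, and no doublets were called here. For ATAC-seq (fragments under 50 bp) and CUT&Tag (replicates merged by the authors before peak calling) the deposited peak lists give a score per peak, and the notes name Bowtie2 2.4.5, SAMtools 1.16.1 and MACS 1.4.2. The authors' own fold-change columns were not used.

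Bulk differences were computed as log2(FPKM + 1) within a table, for genes with at least 1 FPKM in either library, and called past 1. Estimated from read steps in low values (the commonest ratio, which 14.9% to 27.1% of the genes used shared), the JGES libraries had 0.337 to 0.408 of the depth of the first SALL4WT library and the other SALL4 libraries 0.962 to 1.25, and the reads behind each FPKM value were not recovered, so no interval is given. UMIs were summed per sample and cell type. Peaks were assigned within 2 kb of a RefSeq start. Python 3.11.15, numpy 2.4.6, pandas 2.3.3, scipy 1.17.1 and matplotlib 3.10.9 were used. The bulk calls, median scaling, Poisson intervals and thinning of cells were tested on simulated data, and the peak steps were not. All 8 genes are named throughout, with the 3 genes of highest Pearson's r to each (at least 5 FPKM in a library) and up to 3 genes per list with the largest difference at day 7 in JGES. The genes and lists were chosen with earlier results of these data known. Alternatives were another pseudocount, another or no FPKM filter, median scaling, thinned cells, cells without the highest UMI counts, CPM without mitochondrial and ribosomal UMIs, and other peak windows and scores.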

Additional observations from a re-analysis of the deposited data

Results flagged for a closer look

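The pairs of differences given here had opposite signs between settings of one comparison, each with 1 library or sample per condition, and none of these differences between differences was tested. Dnmt3l was higher with BMP4 in JGEO cells (1.28 on the log2 scale) and lower in JGES cells of the same table (−3.86), 5.14 apart. Uhrf1 was higher with BMP4 in JGE cells (1.12) and lower in JGES cells (−1.30), 2.42 apart. Tet2 was higher with Sall4 added to JGE cells, without BMP4 (1.88) and with it (1.24), and lower with Sall4 added to JGEO cells with BMP4 (−1.21), which puts them 3.09 and 2.45 apart. Tet1 was higher with Oct4 added to JGE cells with BMP4 (1.07) and lower with Oct4 added to JGES cells without BMP4 (−2.92), 3.99 apart. With the libraries scaled to a median ratio, the higher side of this Tet1 pair was no longer past 2-fold. In each of these 5 pairs one side involves the JGES libraries, for which a lower depth was estimated, and the cell make-up of the libraries cannot be told apart from the factor set. In single cells, Uhrf1 was lower with BMP4 in intermediate cells (−1.27) and higher in ParE cells (1.05), a difference of −2.32, while the S-phase list was at 347 and 292 CPM in intermediate and at 459 and 924 CPM in ParE cells without and with BMP4. Relative to the median of all genes within each type, the ParE side was at 0.62 and no longer past 2-fold, and the intermediate side at −1.69. The ParE level of Uhrf1 without BMP4 rests on 87 UMIs in 142 cells.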

How the results depend on the processing

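No paired analysis was possible because the groups compared share fewer than 2 replicate numbers, and days and factor sets were not taken as replicates of one another. None of the alternatives reversed a called difference. Of 140 counts of members, 128 stayed within 1.5 times the value given and 12 moved, and the cause was not tested where more than a threshold was changed. With a pseudocount of 0.1, the count of members called was 4 in place of 2 for JGES with BMP4 at day 7 against day 0, 2 in place of 1 for BMP4 in JGEO, 1 in place of 0 for SALL4delN12 against SALL4WT at day 5 and 2 in place of 1 at day 11. With a minimum of 5 FPKM, which tests fewer genes, it was 1 in place of 2 for JGES with BMP4 at day 7 against day 0, 2 in place of 4 for Sall4 added to JGE with BMP4, 1 in place of 2 for Sall4 added to JGEO with BMP4 and 1 in place of 2 for Oct4 added to JGE with BMP4. Scaled to a median ratio, the last 2 were also 1 each, as Dnmt3a and Tet1, in that order, were no longer called. In endothelial cells with BMP4 against without, 5 members were called, 2 relative to the median of all genes (an alternative chosen after seeing the data) and 2 without mitochondrial and ribosomal UMIs. Of single differences of members, 398 kept their side of the threshold, 21 passed it and 15 no longer did, among them Tet2 with BMP4 in JGES at day 7 (−1.0 in the copied libraries), and Dnmt1 over all cells (0.73) and Uhrf1 in ParE cells (0.59) without mitochondrial and ribosomal UMIs. Of the CPM levels, 88 of 192 moved beyond their intervals, 61 of them without mitochondrial and ribosomal UMIs. Genes under 1 FPKM, among them Dnmt3l and Tet1 with SALL4 alone, rest on few reads, and without replicates no difference can be set against the spread between cultures.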

Other observations

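At day 7, bulk and single-cell RNA of JGES cells disagreed on the direction of Dnmt1 with BMP4. It was lower in bulk (47.5 and 21.3 FPKM without and with BMP4, a difference of −1.12 on the log2 scale) and higher over all single cells (37.1 and 84.1 CPM, 1.16). Of 12163 genes tested in both, 1230 were called in both, 781 of them higher and 385 lower in both, while 58 were lower in bulk and higher in single cells, Dnmt1 among them, and 6 the reverse, so that 5.20% went opposite ways. The S-phase list was at 446 and 203 FPKM in bulk and at 411 and 543 CPM in single cells, a rise in the latter smaller than the median shift of all genes (0.467 on the log2 scale). Relative to that median, Dnmt1 in single cells was at 0.69. Dnmt3b (−0.71 in bulk and 0.99 in single cells), Tet2 (−1.01 and 0.09) and Dnmt3a (−0.20 and 0.14) also had opposite signs, without a call in both assays, but relative to that median Tet2 (−0.38) and Dnmt3a (−0.33) had the sign of bulk, and Uhrf1, Tet1, Tet3 and Dnmt3l had the same sign in both.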
